A study of Mus musculus with 8 samples.

Results

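The 10 genes described here encode surface receptors by which endothelial cells hold leukocytes or each other: the selectins *Selp* and *Sele*, the immunoglobulin superfamily receptors *Vcam1*, *Icam1*, *Icam2*, *Alcam* and *Mcam*, the immune regulator *Cd200*, and the junction proteins *Pecam1* and *Esam*. They were chosen by name with earlier results of these data known. All 10 were found among the 46517 genes of the count table once the ERCC spike-ins were left out. The study itself names *Selp* for central vein endothelial cells, *Cd200* for peribiliary endothelial cells and *Alcam* for capsular stellate cells and cholangiocytes. Calls of these genes in those cells are therefore descriptions. The table covers 3491 single liver cells of adult mice, of which 1106 were endothelial, 651 immune, 1337 mesenchymal and 397 parenchymal by the class of the authors. The mice were C57BL6/J or carried heterozygous reporters (*Pdgfrb* GFP, *Pdgfra* H2bGFP, *Cspg4* dsRED, *Acta2* GFP, *Cldn5* GFP, alone or combined), were male or female, and were aged from 8 weeks to 1 year. No treatment is named in the labels. Livers were not perfused. No label names the mouse or the reporter line of a cell. Each class has 1 male and 1 female pool of cells, and these 8 pools, which are the samples of the series, are the replicates unless plates are named, so that each class has n = 2 and a sex difference cannot be told apart from the spread between pools. Some clusters and annotated types reached the 5 cells needed for a sum in only 1 pool, among them hepatocytes (201 male and 2 female cells) and B cells (57 and 0).

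In inflamed vessels, selectins catch passing leukocytes on carbohydrate ligands and let them roll, after which VCAM1 and the ICAMs bind leukocyte integrins and arrest them. P-selectin is stored in Weibel-Palade bodies with von Willebrand factor, whereas E-selectin is usually made on demand. PECAM1 and ESAM join neighbouring endothelial cells and are used by leukocytes as they cross the wall, ALCAM binds CD6 and itself, MCAM (CD146) lies at endothelial junctions and on smooth muscle, and CD200 restrains myeloid cells through its receptor. The liver is a particular case because its sinusoids have a fenestrated endothelium without a continuous basement membrane, where leukocytes can be held with little rolling. Blood enters the sinusoids from the portal vein and leaves by the central vein.

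Endothelial cells were sorted with antibodies to CD31, the product of *Pecam1*, or to VE-cadherin, or by the *Cldn5* GFP reporter, so the level of *Pecam1* in the endothelial class is not independent of the sort. The study also used *Pecam1* as its marker of the endothelial class, so the call of *Pecam1* in that class is a description. Kupffer cells were sorted on CD68, cholangiocytes on EPCAM, mesenchymal cells on reporters or PDGFRα, and hepatocytes without selection. The clusters are the authors' pagoda2 clusters of the same transcriptomes, with the multilevel setting (#e1 to #e8 for endothelial cells) used throughout and the finer community setting (names ending in c) where stated, and genes that shaped the clustering differ between clusters partly by construction. The study names #e1 as central vein, #e2 as portal vein, #e3, #e5, #e6 and #e8 as sinusoidal and #e4 as lymphatic, and it annotates #e6 as the last sinusoidal segment before the central vein. Cluster #e7 is called central vein in the annotation of the cells and in the text of the study, but sinusoidal in a table of the study, and it was therefore tested on its own. Markers went with these names: the summed sinusoidal list (*Stab2*, *Stab1*, *Mrc1*, *Clec4g*, *Fcgr2b*, *Oit3*, *Bmp2*) was at 16474 to 18776 CPM (counts scaled to 1000000 per sum) in #e3, #e5 and #e8, at 9058 CPM in #e6, and at 2781 to 4513 CPM in the other 4 clusters. The summed central vein list (*Rspo3*, *Wnt9b*, *Wnt2*) was at 3796 CPM in #e1, 3310 CPM in #e7 and 3044 CPM in #e6, against 30.1 to 518 CPM in the others. Counts per cell without spike-ins ran from 47063 to 1128421, with a median of 228708, and no cell name occurred more than once. Plates were unevenly spread over clusters, with 81.4% of #e3, 54.5% of #e4, 52.7% of #e6 and 52.0% of #e7 from a single plate each, and #e7 had the fewest genes per cell (median 2806, against 3783 to 4610 in the other 7 clusters).

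The 10 genes lie on 5 chromosomes of GRCm38 by the GENCODE vM21 annotation. The selectins lie close together on chromosome 1, with *Sele* at chr1:164048234-164057677 and *Selp* at chr1:164115264-164150026, both on the plus strand. *Icam2* (chr11:106377656-106388075) and *Pecam1* (chr11:106654217-106750628) share chromosome 11 on the minus strand, and *Cd200* (chr16:45382135-45409053) and *Alcam* (chr16:52248996-52454074) share chromosome 16 on the minus strand. *Icam1* (chr9:21015985-21028817), *Esam* (chr9:37528078-37538319) and *Mcam* (chr9:44134469-44142727) lie on the plus strand of chromosome 9, and *Vcam1* (chr3:116109949-116129688) on the minus strand of chromosome 3. Smart-seq2 reads carry no strand, so reads from a member and from an antisense gene on the same bases cannot be told apart. Exons of *Selp* share 186 bases with the antisense gene *Gm16587* and 438 bases with *Gm16548*, and those of *Icam1* share 511 bases with *Gm47079*. The overlaps of *Vcam1* and *Mcam* with antisense genes are 61 and 17 bases.

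The 250 bases before the start of *Selp*, *Sele* and *Cd200* are shown because these 3 genes carry the contrasts below: central vein and #e6 for *Selp*, rare high cells for *Sele*, and veins without sinusoids for *Cd200*. The sequences are RefSeq promoter windows of GRCm38.p6, printed 5′ to 3′ along the gene, with capitals for the motifs found. The windows are chr1:164115014-164115263 (plus strand) for *Selp*, chr1:164047984-164048233 (plus strand) for *Sele* and chr16:45409054-45409303 (minus strand) for *Cd200*.
Selp: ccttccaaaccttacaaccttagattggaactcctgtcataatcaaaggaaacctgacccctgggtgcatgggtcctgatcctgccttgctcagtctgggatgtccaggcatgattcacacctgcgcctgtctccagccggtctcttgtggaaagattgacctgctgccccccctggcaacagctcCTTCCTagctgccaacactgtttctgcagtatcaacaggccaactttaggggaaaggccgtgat
Sele: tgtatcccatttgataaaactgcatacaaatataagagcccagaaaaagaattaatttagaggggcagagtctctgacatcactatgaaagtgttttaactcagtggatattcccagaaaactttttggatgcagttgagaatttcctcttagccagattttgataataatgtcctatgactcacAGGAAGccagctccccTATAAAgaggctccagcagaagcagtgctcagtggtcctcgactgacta
Cd200: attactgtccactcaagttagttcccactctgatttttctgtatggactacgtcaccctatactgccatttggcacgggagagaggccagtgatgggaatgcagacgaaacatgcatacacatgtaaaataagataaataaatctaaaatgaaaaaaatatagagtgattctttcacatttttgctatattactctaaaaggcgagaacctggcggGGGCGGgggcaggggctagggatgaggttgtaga
The strings searched, 4 in all, were looked for on both strands and were the TATA box TATAAA, the GC box GGGCGG, the ETS core AGGAAG and the NF-kB consensus. The window of *Sele* holds TATAAA from 49 to 44 bases and AGGAAG from 65 to 60 bases before the start. That of *Selp* holds AGGAAG on the minus strand (read here as CTTCCT) from 64 to 59 bases before the start, at nearly the same distance as in *Sele*. That of *Cd200* holds GGGCGG from 34 to 29 bases before the start and neither of the other 2 short strings. Of 32851 windows of this length, 12.4% hold TATAAA, 32.7% GGGCGG, 29.5% AGGAAG and 3.90% the NF-kB consensus, which none of the 3 windows holds. A match or its lack is a description of these letters only. RefSeq windows were found for 6 of the 10 genes, and those of *Alcam* and *Mcam* overlap an exon of the gene and are not printed.

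Levels between genes were compared per kilobase of merged exons. Over all endothelial cells *Esam* was highest on this scale, at 316 CPM per kb, followed by *Pecam1* at 218, *Icam2* at 187, *Selp* at 102, *Icam1* at 77.5, *Mcam* at 58.9, *Cd200* at 48.8, *Vcam1* at 36.7, *Sele* at 11.4 and *Alcam* at 6.92. *Icam2* was also the most even, with 299.8 to 469 CPM across the 8 endothelial clusters. *Pecam1* ran from 857 to 1982 CPM. The other 8 genes were spread more widely across the clusters, and *Cd200* most widely, from 0.617 CPM in #e3 to 639 CPM in #e2.

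In endothelial cells 6 of the 10 receptors were called higher than in the mean of the other 3 classes (adjusted p under 0.05, with a log2 fold change of 1 or more either way), where 8.28% of all 24046 genes tested were called, 5.33% higher and 2.96% lower. These were *Selp*, *Sele*, *Icam2*, *Mcam*, *Pecam1* and *Esam*. *Selp* was at 397 and 536 CPM in the male and female endothelial pools, and at 11.7 and 0.843 CPM in the immune, 2.37 and 0.0351 CPM in the mesenchymal and 5.93 and 0.938 CPM in the parenchymal pools. The endothelial pools did not overlap with any other (log2 fold change 7.15, SE 1.28, adjusted p = 0.014). Unless DESeq2 is named, adjusted p values come from the quasi-likelihood test of edgeR, with the Benjamini-Hochberg method over all genes tested. *Sele* was at 36.7 and 27.6 CPM in the endothelial pools and at no more than 0.315 CPM in any other (7.31, SE 1.09, adjusted p = 0.0069). *Icam2*, a constitutive integrin ligand, was at 368 and 336 CPM in endothelial and at 98.4 and 67.9 CPM in immune pools, and at 0.719 to 10.001 CPM in the others (4.89, SE 0.70, adjusted p = 0.0057). *Pecam1* was at 1169.6 and 1657 CPM (5.46, SE 0.31, adjusted p = 0.00023) and *Esam* at 886 and 936 CPM (4.83, SE 0.38, adjusted p = 0.00069). Low counts of *Pecam1* were widespread, with at least 1 count in 75.3% of mesenchymal and 76.6% of parenchymal cells, but 20 counts or more were reached in only 1.27% and 1.26% of them, against 86.3% of endothelial cells. Shares of cells are therefore given below at 20 counts or more.

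*Vcam1* and *Icam1* were not called in the endothelial class (log2 fold changes 1.02, adjusted p = 0.18, and 0.73, adjusted p = 0.33). *Vcam1* was at 279 and 399 CPM in the endothelial pools but at 362 and 616 CPM in the immune pools, which were called higher than the other 3 classes (log2 fold change 1.91, SE 0.40, adjusted p = 0.016). The mesenchymal pools had 189 and 102 CPM and the parenchymal pools, called lower (-2.49, SE 0.51, adjusted p = 0.016), 37.9 and 73.4 CPM. *Icam1* was at 339 and 336 CPM in endothelial, 163 and 388 CPM in immune, 189 and 211 CPM in mesenchymal and 86.8 and 178 CPM in parenchymal pools. These ranges overlapped between the endothelial and immune classes, and *Icam1* was called in no class. In immune cells 3 receptors were called against 13.2% of all genes (7.92% higher and 5.25% lower), with *Mcam* (-6.17, SE 0.89) and *Esam* (-3.37, SE 0.51) lower. *Icam2* was not called there (2.30, adjusted p = 0.065), but it was with the pool as a block (2.66, adjusted p = 0.042).

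*Alcam* had its highest class outside the endothelium, and *Mcam* was shared between endothelium and mesenchyme. *Alcam* was at 417 and 434 CPM in the parenchymal pools, called higher (log2 fold change 3.03, SE 0.65, adjusted p = 0.02), at 165 and 92.0 CPM in the mesenchymal, 38.5 and 66.2 CPM in the endothelial and 32.0 and 3.33 CPM in the immune pools. *Mcam* was at 174 and 389 CPM in the mesenchymal and 195 and 201 CPM in the endothelial pools, which overlapped, and both classes were called higher than the mean of the others (3.72 and 2.96). In mesenchymal cells 4 of the 10 receptors were called, against 11.8% of all genes (9.47% higher and 2.33% lower), with *Esam* also higher (1.93) and *Icam2* (-4.10) and *Pecam1* (-3.46) lower. In parenchymal cells 4 were called, against 12.4% (8.37% higher and 4.05% lower), with *Pecam1* (-3.11) and *Esam* (-3.39) lower beside *Vcam1*, while the median log2 fold change over all genes was -0.27. *Cd200* was at 99.2 and 261 CPM in endothelial and 128 and 206 CPM in mesenchymal pools, did not separate these 2 classes, and was called in none.

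**Figure D1:**
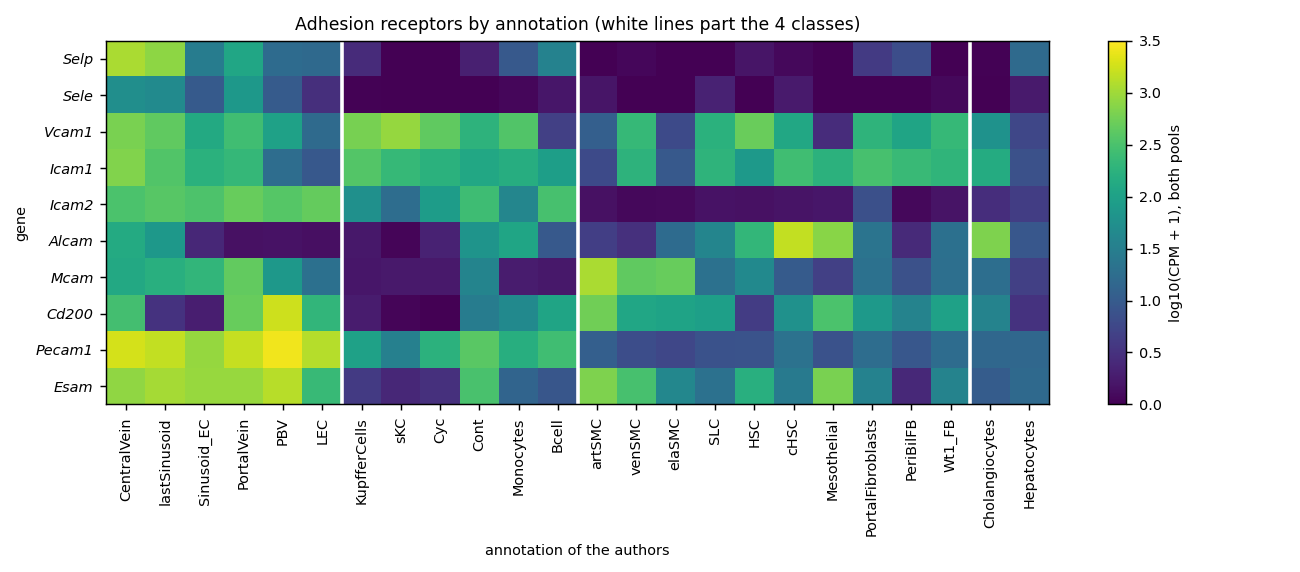
Level of the 10 receptors (rows) in the 24 annotated cell types (columns), as log10(CPM + 1) over both pools, with white lines between endothelial, immune, mesenchymal and parenchymal types. *Selp* and *Sele* are brightest in endothelial columns, *Vcam1* and *Icam1* in 3 classes, *Alcam* in cHSC (1519 CPM), mesothelial cells (764 CPM) and cholangiocytes (655 CPM), and *Mcam* in artSMC (1119 CPM).

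The comparison of veins with sinusoids set #e1 and #e2 against #e3, #e5, #e6 and #e8. Of the 10 receptors 3 were called, all higher in veins, against 1.18% of the 18321 genes tested (0.961% higher and 0.224% lower): *Cd200*, *Selp* and *Vcam1*. The remaining 7 were not called. Each vein was then tested alone. In the central vein 4 receptors were called higher, against 1.48% of all genes (1.33% higher and 0.147% lower). In the portal vein *Cd200* alone was, against 1.35% (1.23% higher and 0.115% lower).

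**Figure D2:**
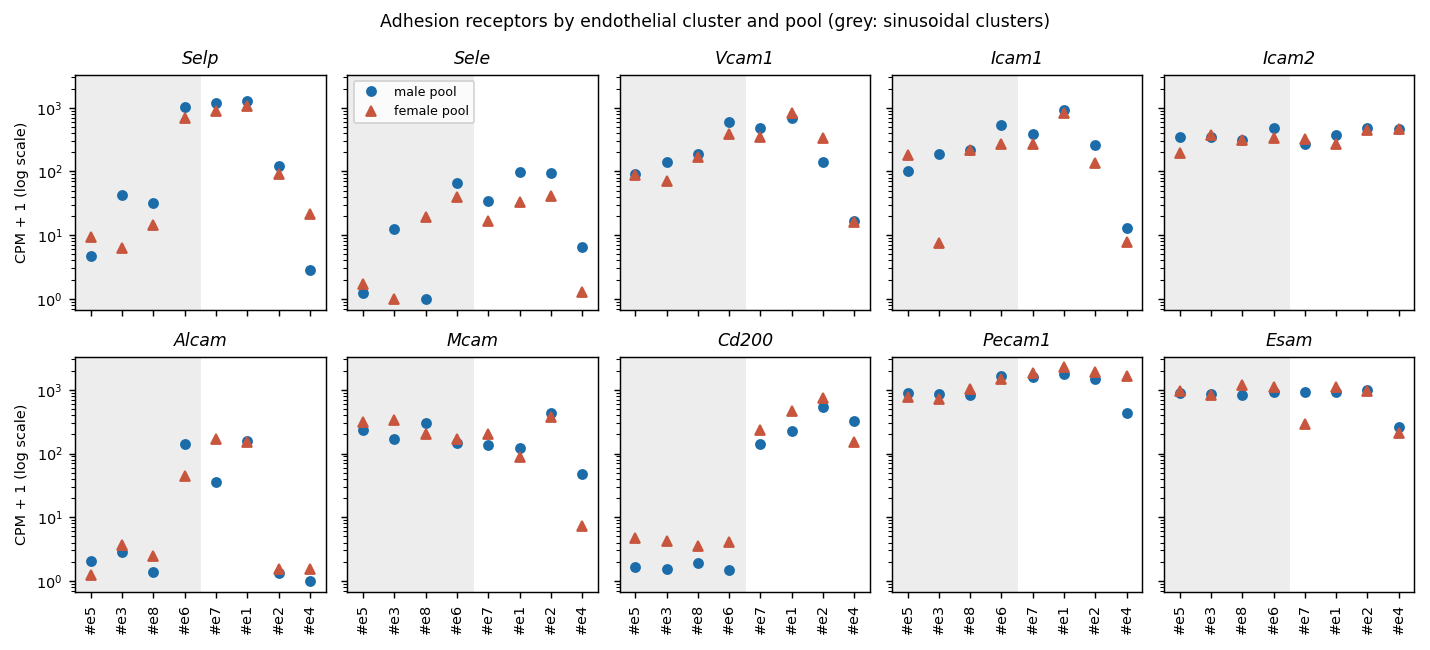
CPM + 1 (log scale) of each receptor in the 8 endothelial clusters, with circles for the male and triangles for the female pool and sinusoidal clusters on grey. *Selp*, *Vcam1* and *Icam1* are highest in #e1 in both pools and also high in #e6 and #e7, *Alcam* is high in the same 3 clusters with its highest female value in #e7 (167 CPM), *Cd200* is high in #e1, #e2, #e4 and #e7 and at no more than 3.67 CPM in the 4 sinusoidal clusters, and *Icam2* is nearly level.

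P-selectin was highest on the central side of the vasculature. *Selp* was at 1292 and 1078 CPM in the male and female pools of #e1, 1197 and 896 CPM in #e7 and 1029.6 and 689.8 CPM in #e6. It was at 122 and 90.7 CPM in the portal vein cluster #e2, and at 41.4 and 5.37 CPM in #e3, 30.8 and 13.6 CPM in #e8, 3.70 and 8.25 CPM in #e5 and 1.87 and 20.7 CPM in #e4. The pools of #e7 overlapped with those of #e1 and of #e6, while #e6 lay below #e1 in both pools. All 3 lay above #e2, which in turn lay above #e3, #e5 and #e8. The log2 fold change was 3.18 for both veins (SE 0.48, adjusted p = 0.0026), 4.94 for the central vein (SE 0.55, adjusted p = 0.00011) and 1.43 for the portal vein (SE 0.59, adjusted p = 0.42). With sums per plate and the plate as a block neither call held (1.84, adjusted p = 0.36, for both veins and 2.41, adjusted p = 0.22, for the central vein). The portal value depended on which clusters stood for sinusoids: without #e6 it was 2.92 and called (adjusted p = 0.026). Of cells in #e1, 89.5% held 20 or more counts of *Selp* (95% exact binomial interval 83.5 to 93.9%), against 64.3% in #e6 (54.7 to 73.1%), 43.3% in #e7 (35.3 to 51.7%), 15.6% in #e2 (9.81 to 23.1%) and 3.39% in #e3 (1.47 to 6.57%). These intervals, like those below, cover counting error only. In #e2, #e3 and #e8 the 5 richest cells held 60.9%, 87.2% and 87.9% of all *Selp* counts, compared with 12.5% in #e1. With cells thinned to 50000 counts each, which left out 13 shallower cells of the whole table, at least 1 count of *Selp* was found in 93.4% of #e1, 79.5% of #e6, 69.8% of #e7, 39.4% of #e2 and 12.1 to 15.6% of #e3, #e5 and #e8.

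Platelets carry *Selp* transcripts, and livers were not perfused, so platelet genes (*Ppbp*, *Pf4*, *Gp9* and 5 others) were counted in the same cells. Their summed level was 21.1 to 257 CPM across the 8 endothelial clusters, lowest in #e6 and highest in #e4. In #e1, 42.8% of cells held a platelet count, and the level of *Selp* without these cells was 1163 CPM against 1198 CPM in all cells. In #e6 it was 774 against 796 CPM and in #e7 900.4 against 1022 CPM. In #e2 it was 54.8 against 105 CPM. The part of platelet RNA in these levels was not tested, and depth was not matched between cells with and without a platelet count.

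Cluster #e6 was the exception among the sinusoids. A comparison of #e6 with #e3, #e5 and #e8, added after the values had been seen, called 3 of the 10 receptors, all higher in #e6, against 0.246% of all genes (0.235% higher and 0.0109% lower). *Selp* had a log2 fold change of 5.96 (SE 0.63, adjusted p = 0.00012), *Alcam* of 6.40 (SE 0.96, adjusted p = 0.0052) and *Vcam1* of 2.11 (SE 0.39, adjusted p = 0.027). *Cd200* was not called (0.10, SE 0.82, adjusted p = 1), at 0.494 and 3.03 CPM in #e6. With sums per plate, over 5 plates, *Selp* was still called (6.33, adjusted p = 0.012), but *Alcam* (5.95, adjusted p = 0.061) and *Vcam1* (1.36, adjusted p = 0.65) were not. *Selp* and *Alcam* were higher in #e6 in 5 of the 5 plates and *Vcam1* in 4. Of the receptors not called, *Icam1* and *Pecam1* were also higher in 5, *Sele*, *Icam2* and *Esam* in 4 and *Cd200* in 2, and *Mcam* was lower in 5. This comparison and that of the central vein with the sinusoids both use the sums of #e3, #e5 and #e8.

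E-selectin was present in few endothelial cells. *Sele* was at 98.7 and 32.0 CPM in #e1, 94.3 and 39.8 CPM in #e2, 65.6 and 38.2 CPM in #e6 and 33.1 and 15.6 CPM in #e7, against at most 18.5 CPM in any pool of the other 4 clusters. The male pool was the higher in each of the 4 clusters first named. Pool values of #e1 and #e2 lay close together. The log2 fold change of the central against the portal vein was -0.01, with an SE of 1.94 that leaves this comparison undecided. In 5 plates with both veins, *Sele* was higher in the central vein in 3 and lower in 2. The log2 fold change of veins against sinusoids was 3.55 with an SE of 1.17 and was not called (adjusted p = 0.2), but it was with DESeq2 (3.46, adjusted p = 0.03) and with no filter on low counts (3.60, adjusted p = 0.02). At 20 or more counts *Sele* was found in 11.2% of #e1 (6.65 to 17.3%), 9.38% of #e2 (4.94 to 15.8%) and 9.82% of #e6 (5.01 to 16.9%), and in none of 151 cells of #e5, which allows up to 1.99%. The 5 richest cells held 57.6% of its counts in #e1 and 98.6% in #e7.

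*Vcam1* and *Icam1*, the ligands of the leukocyte integrins VLA-4 and LFA-1, were both highest in #e1, followed by #e6 and #e7. In #e2 the female pool was the higher for *Vcam1* and the male pool for *Icam1*. *Vcam1* was at 680.0 and 830.2 CPM in #e1, 594 and 381 CPM in #e6, 484 and 350.1 CPM in #e7 and 139 and 336 CPM in #e2, and between 68.7 and 190.0 CPM in the pools of #e3, #e5 and #e8. The lymphatic cluster #e4 was lowest, at 15.6 and 15.1 CPM. The central vein was called higher than the sinusoids (log2 fold change 2.22, SE 0.37, adjusted p = 0.0053), both veins together less clearly (1.36, SE 0.31, adjusted p = 0.041), and the portal vein was not (0.51, SE 0.40, adjusted p = 0.93). The call for both veins was lost when cells were thinned to 50000 counts each (1.29, adjusted p = 0.099), when #e7 was added to the sinusoids (1.04, adjusted p = 0.12) and with sums per plate and the plate as a block (0.72, adjusted p = 0.64). Sums per plate also ended the call for the central vein (1.53, adjusted p = 0.11).

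*Icam1* was at 918 and 838 CPM in #e1, 533 and 266 CPM in #e6, 387 and 267 CPM in #e7 and 256 and 134 CPM in #e2. In #e3 it was at 185 CPM in the 230 male cells and 6.44 CPM in the 6 female cells, and in #e5 and #e8 it ran from 100.5 to 220.3 CPM. Both pools of #e1 lay above all others. Against the sinusoids the log2 fold change of the central vein was 2.32 (SE 0.61) and not called (adjusted p = 0.085). It was called when sums needed at least 10 cells (2.10, adjusted p = 0.0052), which leaves out those 6 female cells and 9 male cells of #e4. It was also called with no filter on low counts, which keeps these cells (2.38, adjusted p = 0.0001), and with sums per plate (1.97, adjusted p = 0.014). For the portal vein it was 0.12 (SE 0.69, adjusted p = 1). At 20 or more counts *Vcam1* was in 75.7% of #e1 (68.0 to 82.2%) and *Icam1* in 73.7% (65.9 to 80.5%), compared with 13.2% and 13.9% of #e5.

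*Alcam* was present in the central vein and near 0 in the portal vein. It was at 155 and 151 CPM in #e1, 139 and 43.8 CPM in #e6 and 34.6 and 167 CPM in #e7, and at no more than 2.68 CPM in any pool of the other 5 clusters. In the portal vein cluster #e2 it was at 0.310 and 0.526 CPM, from 15 counts in 128 cells. The log2 fold change of the central vein against the sinusoids was 5.54 (SE 0.84, adjusted p = 0.0026), a call that was lost with sums per plate (3.55, adjusted p = 0.09), and that of the portal vein was -2.98 (SE 1.22, adjusted p = 0.41). At 20 or more counts *Alcam* was found in 28.9% of #e1 (21.9 to 36.8%) and 16.96% of #e6 (10.5 to 25.2%), and in none of #e2, which allows up to 2.34%. In #e7 only 4.67% of cells reached 20 counts, and 5 cells held 93.8% of the *Alcam* counts.

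*Cd200* was high in both veins and near 0 in the sinusoids. Cluster #e2 joins the 114 portal vein cells of #e2c with the 14 cells of #e5c, annotated as peribiliary vasculature. *Cd200* was at 528 and 733 CPM in #e2 and at 459 and 513 CPM in #e2c alone. It was at 226 and 466 CPM in #e1, 318 and 151 CPM in #e4 and 139 and 229.8 CPM in #e7. In the 4 sinusoidal clusters it ran from 0.494 to 3.67 CPM, #e6 included, so the 2 sides lay far apart in both pools. The log2 fold change was 8.08 for both veins (SE 0.69, adjusted p = 6.4e-06), 7.67 for the central vein (SE 0.72, adjusted p = 1.2e-05) and 8.50 for the portal vein (SE 0.73, adjusted p = 1.2e-05). At 20 or more counts it was in 50.7% of #e1 (42.4 to 58.9%) and 47.7% of #e2 (38.8 to 56.7%), and in 1 cell of #e8 and none of #e3, #e5 and #e6. In #e6 this was 0 of 112 cells, which allows up to 2.68%.

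*Mcam*, *Pecam1*, *Icam2* and *Esam* did not pass the test between veins and sinusoids. *Mcam* was at 433 and 379 CPM in #e2 and 121 and 87.7 CPM in #e1, with 144 to 337 CPM in the pools of the sinusoidal clusters between them. Its log2 fold change was 0.84 (SE 0.56) for the portal and -1.09 (SE 0.64) for the central vein, so the mean over both veins was near 0 (-0.12, SE 0.46). *Pecam1* was at 1762 and 2264 CPM in #e1, 1502 and 1872 CPM in #e2, 1631 and 1467 CPM in #e6 and 718 to 1033 CPM in the pools of #e3, #e5 and #e8. Its log2 fold change was 0.93 (SE 0.24, adjusted p = 0.081) for both veins, and it was called without #e6 among the sinusoids (1.17, adjusted p = 0.036). *Icam2* had a log2 fold change of 0.25 (SE 0.27) and *Esam* of 0.10 (SE 0.25). *Esam* was at 824 to 1188 CPM in both pools of #e1, #e2, #e3, #e5, #e6 and #e8 and lower in #e4, at 258 and 209 CPM.

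**Figure D3:**
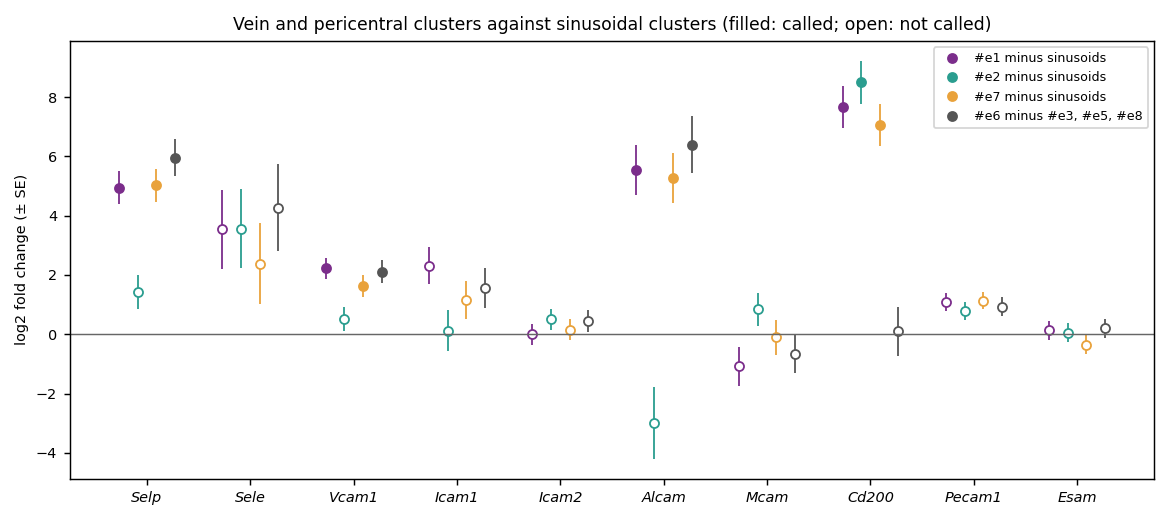
Log2 fold change (± SE) of each receptor for #e1, #e2 and #e7 against the sinusoidal clusters and for #e6 against #e3, #e5 and #e8, with filled points for called and open points for uncalled values. *Cd200* is filled for #e1, #e2 and #e7 and at 0.10 for #e6, *Alcam* is filled for #e1, #e7 and #e6 and at -2.98 for #e2, and *Icam2* and *Esam* lie near 0.

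Compared directly, the central and portal veins gave no called receptor, where 14 of all 18321 genes were called (0.0764%, with 0.0491% higher and 0.0273% lower). *Alcam* had the largest difference (log2 fold change 8.52, SE 1.69, adjusted p = 0.091), followed by *Selp* (3.51, SE 0.89, adjusted p = 0.4), *Icam1* (2.20, SE 0.92, adjusted p = 0.8), *Mcam* (-1.93, SE 0.78, adjusted p = 0.79) and *Vcam1* (1.71, SE 0.54, adjusted p = 0.66). *Selp* and *Alcam* were called with DESeq2, without the filter on low counts, with at least 10 cells per sum and with sums per plate, where *Selp* ran from 3.49 to 4.56 and *Alcam* from 8.51 to 8.54. *Icam1* was called with sums per plate only (1.89, adjusted p = 0.048). *Cd200* was not called between the veins (-0.83, SE 0.97, adjusted p = 1).

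Plates that held both kinds of cell gave a comparison within a plate. Over 8 plates with vein and sinusoidal cells, *Selp* was higher in the veins in 6, *Vcam1* in 5 and *Cd200* in 7, at 0 against 0.255 CPM in the other plate. Of the receptors not called, *Icam1* was higher in 8, *Pecam1* in 7, *Alcam* and *Esam* in 6, *Sele* in 5, and *Icam2* and *Mcam* in 4. In 5 plates with cells of #e1 and of the sinusoids, *Selp* was at 1033 to 1509 CPM in #e1 and at 35.5 to 1185 CPM in the sinusoidal cells, and it was higher in #e1 in all 5. The same held for *Vcam1*, *Icam1*, *Alcam*, *Cd200* and *Pecam1*, and *Mcam* was lower in #e1 in 5 of 5. In 7 plates with #e2, *Cd200* was higher than in the sinusoids in 7, at 203 to 749.9 CPM against 0 to 3.32 CPM, while *Selp* was higher in 3 of 7 and *Alcam* was lower in 6 and at 0 on both sides in 1. In the 5 plates with both veins, *Selp*, *Icam1*, *Alcam* and *Pecam1* were higher in the central vein in 5 of 5, and *Mcam*, *Cd200* and *Icam2* in the portal vein in 5 of 5. The sinusoidal cells of a plate, those of #e6 included, were summed together here. With sums per plate and the plate as a block, *Selp*, *Vcam1* and *Alcam* were no longer called in the central vein, while *Cd200* and *Icam1* were.

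**Figure D4:**
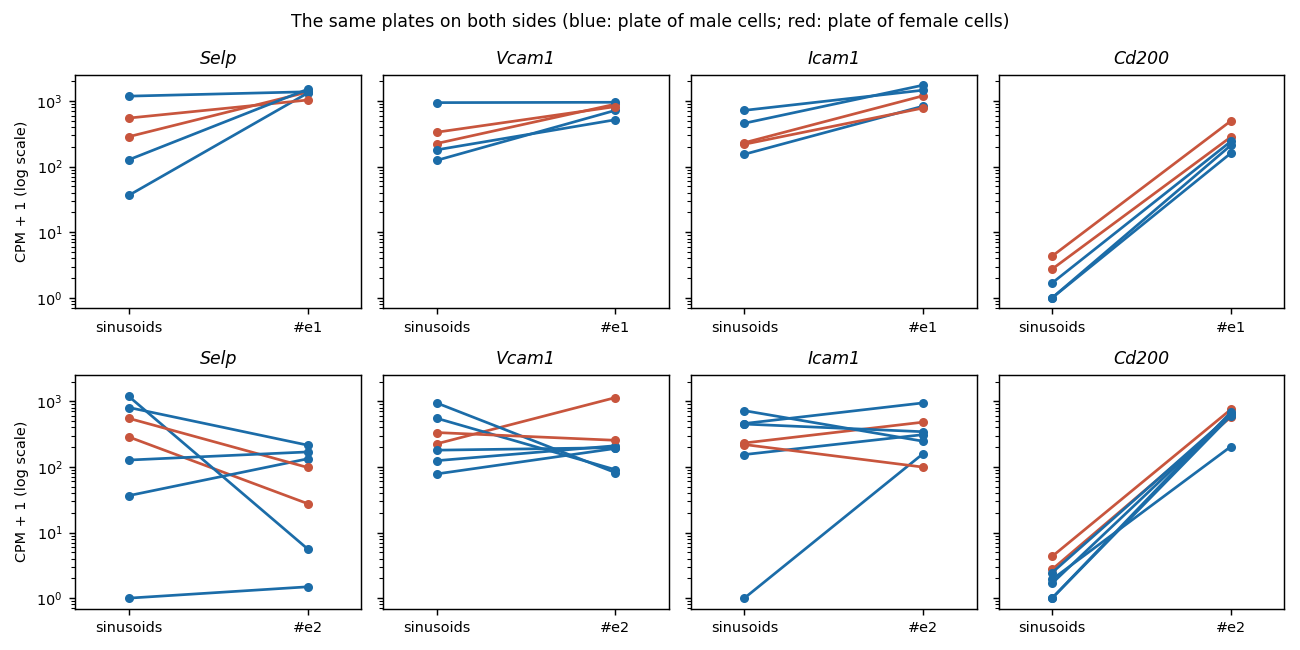
CPM + 1 (log scale) of 4 receptors in the sinusoidal cells and in #e1 (upper row, 5 plates) or #e2 (lower row, 7 plates) of the same plate, with a line for each plate, blue for plates of male and red for plates of female cells. *Selp*, *Vcam1* and *Icam1* rise towards #e1 in each plate but run both ways towards #e2, and *Cd200* rises in all plates of both rows.

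Of the 10 receptors 4 were called higher in cluster #e7 than in the sinusoids, against 1.39% of all genes (1.28% higher and 0.115% lower): *Selp* (log2 fold change 5.03, SE 0.56, adjusted p = 0.00011), *Cd200* (7.07, SE 0.71, adjusted p = 4.0e-05), *Alcam* (5.28, SE 0.84, adjusted p = 0.0035) and *Vcam1* (1.64, SE 0.37, adjusted p = 0.042). The median over all genes was -0.11. These are the same 4 genes as in the central vein, and both comparisons share the sinusoidal sums. At 20 or more counts *Vcam1* was in 22.0% and *Cd200* in 15 of the 150 cells, and 5 cells held 73.1% of the *Cd200* counts. Cells of #e7 were shallower than those of #e1, with a median of 177419 against 320683 counts. At equal depth, with 50000 counts a cell, at least 1 count was found in 69.8% of #e7 and 93.4% of #e1 for *Selp*, 49.7% and 82.9% for *Vcam1* and 24.2% and 64.5% for *Cd200*, shares that were not tested. None of the 4 was called with sums per plate, of which 4 plates could be used: the log2 fold change was 2.09 for *Selp* (adjusted p = 0.34), 1.27 for *Vcam1* (adjusted p = 0.73), 1.51 for *Alcam* (adjusted p = 0.85) and 8.23 for *Cd200* (adjusted p = 0.15). *Selp*, *Vcam1* and *Cd200* were higher in 4 of 4 plates, and *Alcam* in 2 of 4, with 0 on both sides in the other 2. *Vcam1* was not called with thinned cells either (1.38, adjusted p = 0.13). *Esam* was uneven in #e7, at 915 CPM for the male cells but 294 CPM for the female ones.

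The receptors were then counted together in single cells. Of *Selp*, *Vcam1*, *Icam1*, *Alcam* and *Cd200*, a cell of #e1 most often held 3 at 20 or more counts (41.4% of 152 cells), 30.9% held 4, 7.24% held all 5 and 1.32% none. In #e6, 33.0% held 2 and 15.2% none, and in #e2, 39.1% held 1 and 32.8% none. No cell of #e5 or #e8 held more than 2, and 76.2% and 60.0% of them held none. Depth differed between these clusters, with a median of 320683 counts per cell in #e1 and 110837 in #e8, and its part in these shares was not tested. At equal depth, after thinning to 50000 counts, at least 1 count of *Vcam1* was found in 82.9% of #e1 and 56.5% of #e8, and of *Icam1* in 80.3% and 50.6%. Within #e1, where *Alcam* was seen in 44 cells, *Selp* was found in 81.8% of those and in 92.6% of the other 108. In #e2, 19 of the 20 *Selp* cells were among the 61 cells with *Cd200*, a pair singled out after its values were seen, and the median depth was 232993 counts with and 239372 counts without *Cd200*. In #e7 *Selp* was found in 6 of the 15 cells with *Cd200* and in 43.7% of those without it.

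**Figure D5:**
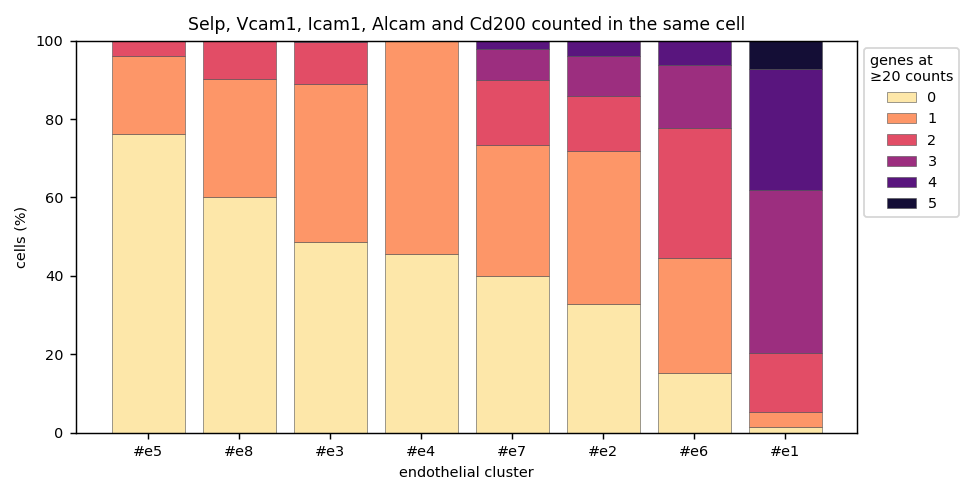
Share of cells (%) of each endothelial cluster that held 0 to 5 of *Selp*, *Vcam1*, *Icam1*, *Alcam* and *Cd200* at 20 or more counts, as stacked bars from light (0) to dark (5). Bars for #e1 are mostly dark, with 1.32% of cells at 0, and those for #e5 mostly light, with 76.2% at 0.

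Of the community clusters, #e5c, the 14 cells annotated as peribiliary vasculature, had *Cd200* at 1185 CPM in 5 male cells and 2008 CPM in 9 female cells, the highest level of any annotated type. The study names *Cd200* for these cells, so this is a description. *Pecam1* was at 2303 and 2835 CPM, and *Esam* at 2045 and 919 CPM. Against the portal vein cluster #e2c no receptor was called, where 1.57% of 17793 genes were (0.118% higher and 1.46% lower). *Selp* was at 2.60 and 22.8 CPM in #e5c and 135 and 102 CPM in #e2c (log2 fold change -2.89, SE 1.05, adjusted p = 0.15), and *Icam1* at 1.95 and 24.9 CPM against 283 and 153 CPM (-3.67, SE 1.19, adjusted p = 0.12). The median over all genes was -1.18 in this comparison. DESeq2 called *Icam1* alone (-3.32, adjusted p = 0.029).

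Among immune cells the receptors followed cell type. *Vcam1* was at 459 and 632 CPM in cells annotated KupfferCells (469 cells), the resident macrophages, with 61.6% of cells at 20 or more counts, and at 815 and 2433 CPM in the 18 cells annotated sKC, of which 1 was female. In B cells it was at 3.60 CPM. *Icam1* was at 206 and 407 CPM in KupfferCells and 91.0 CPM in B cells. B cells, all from the male pool, had *Icam2* at 306 CPM, *Cd200* at 110.4 CPM and *Pecam1* at 269.9 CPM. The 26 cells annotated Cont had *Esam* at 17.9 and 406 CPM and *Icam2* at 469 and 192 CPM, beside a summed endothelial list of 5979 CPM and a summed Kupffer cell list of 10138 CPM. Kupffer cell genes were in turn counted in #e8, at a summed 1088 CPM against 17.7 to 111 CPM in the other endothelial clusters, and *Vcam1* in #e8 was at 190.0 and 168 CPM, against 140.5 and 68.7 CPM in #e3 and 90.8 and 85.7 CPM in #e5. The part of Kupffer cell RNA in the value of #e8 was not tested.

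In the mesenchyme, the smooth muscle cells of the vessel wall shared *Mcam* with the endothelium, the arterial and venous ones also *Esam*, and the arterial ones *Cd200*. *Esam* and *Cd200* were not particular to the vessel wall there. The 6 mesothelial cells, too few in either pool for a sum in the fit below, had *Esam* at 633 CPM and *Cd200* at 326 CPM. The stellate cells annotated HSC had *Esam* at 159 CPM. Mural clusters (#m2c, #m8c, #m9c and #m15c) against all other mesenchymal clusters gave 6 called receptors, against 3.35% of 21329 genes (2.08% higher and 1.27% lower). *Mcam* was at 1235 and 1046 CPM in arterial smooth muscle cells (artSMC), 333 and 519 CPM in the cells annotated elaSMC and 439.7 and 423 CPM in venous smooth muscle cells (venSMC), and at a mean of 11.4 and 86.2 CPM over the non-mural clusters (log2 fold change 5.22, SE 0.43, adjusted p = 2.8e-10). *Esam* was at 545 and 748 CPM in artSMC, 286 and 335 CPM in venSMC and only 17.6 and 47.1 CPM in elaSMC (3.20, SE 0.51, adjusted p = 6.3e-05). *Cd200* was at 622 and 503 CPM in artSMC, but at 133 and 77.5 CPM in venSMC and 292 and 59.6 CPM in elaSMC, which overlapped with the 125 and 60.6 CPM of the fibroblasts annotated Wt1_FB. Over the 4 mural clusters it was called by a narrow margin (1.49, SE 0.43, adjusted p = 0.044), which was lost with at least 10 cells per sum (1.23, adjusted p = 0.053).

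Mural clusters had less *Icam1* (log2 fold change -2.58, SE 0.44, adjusted p = 0.00017), *Alcam* (-3.48, SE 0.53, adjusted p = 2.9e-05) and *Vcam1* (-2.03, SE 0.56, adjusted p = 0.032). The call of *Vcam1* did not hold with the pool as a block (-2.01, adjusted p = 0.088). It was uneven among mural types, at 18.4 and 5.51 CPM in artSMC and 0.568 and 6.32 CPM in elaSMC, but 234 and 186 CPM in venSMC. *Icam1* had the same split, with 1.78 and 7.17 CPM in artSMC and 138 and 293 CPM in venSMC. Both genes were thus higher in venSMC than in artSMC and elaSMC in both pools, a difference that was not tested.

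*Alcam* had its highest level of all in capsular stellate cells (cHSC), at 1522 and 1509 CPM with 89.4% of 113 cells at 20 or more counts. It was at 224 and 1.68 CPM in the other stellate cells (HSC), whose female pool held 4 cells, and at 993 and 529.8 CPM in the 6 mesothelial cells. *Vcam1* was the other way round, at 463 and 979 CPM in HSC and 94.3 and 211 CPM in cHSC. Fibroblasts of the portal tract had *Icam1* at 246 and 423 CPM and *Vcam1* at 215 and 117 CPM.

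In the parenchyma, cholangiocytes (#p2) were compared with the hepatocyte clusters, whose sums of at least 5 cells all came from the male pool. The hepatocyte side is thus 1 sample, assumed in the fit to vary like the 2 pools of cholangiocytes, so its values are given here as a description with no p. The fit passed 6 of the 10 receptors, against 37.3% of 16694 genes (28.6% higher and 8.67% lower), and nothing is read from that count. *Alcam* was at 678 and 445 CPM in cholangiocytes, with 67.0% of cells at 20 or more counts, and at 8.09 CPM in male hepatocytes (log2 fold change 6.30). *Icam1* was at 138 and 181 CPM against 6.25 CPM (4.20) and *Vcam1* at 59.4 and 73.2 CPM against 4.21 CPM (3.48), and the median log2 fold change over all genes was 1.38 in the same direction. *Cd200* was at 39.0 and 10.09 CPM against 2.23 CPM. *Mcam* was uneven, at 12.9 and 59.6 CPM against 3.60 CPM, and the 23 cells of the hepatocyte cluster #p3 lay above the male cholangiocytes with 29.9 CPM. *Selp* ran the other way, with 15.1 CPM in male hepatocytes and 3 counts in all 194 cholangiocytes, too few for a fold to be given.

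The other genes of leukocyte adhesion were followed through 6 lists. In veins against sinusoids, where 0.961% of all genes were called higher and 0.224% lower, 1 of 9 tested selectins and selectin ligands was called higher, *Cd34* (log2 fold change 3.77, SE 0.50, adjusted p = 0.00083), at 385 and 876 CPM in #e2, 49.2 and 155 CPM in #e1 and 1.40 to 49.6 CPM in the sinusoidal pools. Of 10 Weibel-Palade body genes, whose organelle stores P-selectin, 3 were called higher: *Edn1* (6.45), *Vwf* (6.06) and *Cd63* (2.85). *Vwf* was at 2241 and 3017 CPM in #e1, 812 and 1277 CPM in #e2 and 4.83 to 509 CPM in the sinusoidal pools. Of 20 junction genes, *Jam2* (1.78) and *F11r* (1.18) were called higher and *Cldn5* (-2.70, SE 0.28, adjusted p = 4.3e-05) lower. *Cldn5*, whose promoter drives the reporter used for part of the sort, was at 14.1 and 10.01 CPM in #e1 but at 1294 and 1220 CPM in #e2, within the sinusoidal range of 281 to 1543 CPM. With sums per plate *Vwf* (5.11, adjusted p = 0.03) and *Jam2* (1.28, adjusted p = 0.024) were still called. The calls of *Cd34* (2.59, adjusted p = 0.24), *Edn1* (5.25, adjusted p = 0.11), *Cd63* (2.37, adjusted p = 0.11), *F11r* (0.76, adjusted p = 0.19) and *Cldn5* (-0.56, adjusted p = 0.64) were lost.

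Of 14 tested NF-kB response genes only *Cx3cl1* was called (log2 fold change 7.36, SE 1.39, adjusted p = 0.012), at 17.1 and 13.8 CPM in #e1 and 8.62 and 58.2 CPM in #e2 and at no more than 0.687 CPM in the sinusoidal pools. It did not pass the filter on low counts with sums per plate. None of 10 tested leukocyte integrins and other receptors and none of 14 immediate early and stress genes were called between veins and sinusoids, although *Ier2* of the latter was with sums per plate (1.27, adjusted p = 0.034). In immune cells, where 7.92% of all genes were called higher and 5.25% lower, 8 of 13 tested genes of the integrin list were higher than in the other classes and none lower, with a median log2 fold change of 5.07 against 0.09 over all genes. In #e6 against #e3, #e5 and #e8, 2 of 10 Weibel-Palade genes and 2 of 20 junction genes were called higher, against 0.235% of all genes. In #e7 against the sinusoids, 2 of 10 Weibel-Palade genes and 4 of 20 junction genes were called higher, against 1.28% of all genes. There 1 junction gene and 4 of 14 immediate early and stress genes were called lower, against 0.115% of all genes. The median of the immediate early and stress genes was -3.14. The list medians in veins against sinusoids were 0.93 for Weibel-Palade, 0.59 for immediate early and stress, 0.24 for selectin, -0.12 for junction, -0.08 for NF-kB and -0.61 for integrin genes, beside 0.08 over all genes.

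Genes with the most similar profile over the 30 multilevel clusters of all classes were sought among 16593 genes, as Pearson's r of log2(CPM + 1). These values are a description, since clusters share pools and plates. *Vcam1* and *Icam1* were among each other's 3 most similar genes (r = 0.90), and so were *Icam2* and *Pecam1* (r = 0.96). For *Vcam1* the first was *RP24.245I16.3* (r = 0.97), which was not found by that name in the annotation used here, so that reads shared with *Vcam1* cannot be told apart from similar expression, followed by *Man1c1* (r = 0.92), which was also second for *Icam1* (r = 0.88) ahead of *B3glct* (r = 0.88). *Icam2* was followed by *Mfng* and *Sh3tc1*, and *Pecam1* by *Prkch* and *Stab1*. For *Selp* the first 2, *Gm16587* (r = 0.90) and *Gm16548* (r = 0.86), are the genes that overlap it on the other strand, so shared reads cannot be told apart from similar expression, and the third was the central vein gene *Wnt9b* (r = 0.85). *Gm16587* (r = 0.91) also came first for *Sele*, ahead of *C1qtnf9* and *Ptprr*. *Mcam* was most like *Lama5*, *Tinagl1* and *Clic4*, *Esam* like *Galnt18*, *Calm2* and *Tinagl1*, and *Cd200* like *Plp2*, *Pik3ip1* and *S100a11*, with r from 0.81 to 0.91. *Alcam* stood most apart, with *Rab27b* (r = 0.76), *Gcnt4* (r = 0.67) and *Plcd3* (r = 0.63).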

How the data were processed

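Single cells of 4 liver classes, each with 1 male and 1 female pool, were profiled by Smart-seq2 with single 50 base reads and no molecular identifiers. The authors deposited raw counts per gene and cell together with their cell classes, annotations and clusters. The submitters' processing notes name Bowtie, Bowtie2, bcl2fastq, featureCounts, Subread and Seurat and the build GRCm38 (mm10), without versions. The 92 ERCC rows were left out, and 46517 genes and 3491 cells remained. No count column lacked a sample.

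Raw counts were summed per cluster (or class) and pool, with at least 5 cells per sum. Sums were tested with edgeR 4.0.16 in R 4.3.3 (quasi-likelihood test, TMM, filterByExpr, Benjamini-Hochberg adjustment over the whole table). Calls needed an adjusted p under 0.05 and an absolute log2 fold change of at least 1. Contrasts compared the mean of the clusters on each side. The hepatocyte clusters had male sums only, so their comparison with cholangiocytes is given without p values. P values measure the spread between these sums only, since no label names the mouse of a cell, and a pool may hold several mice or 1. Levels are CPM of the summed counts, and shares of cells have exact 95% binomial intervals. A share of 0 was given the limit that 3 counts allow. Python 3.11.15, numpy 2.4.6, scipy 1.17.1, pandas 2.3.3 and matplotlib 3.10.9 were used for levels and plots, and gene positions were taken from GENCODE vM21. The edgeR procedure was also run on simulated sums with known fold changes, for veins against sinusoids only.

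The 10 members and the gene lists were chosen with earlier results of these data known. The members were always named. For each, the 3 genes with the highest Pearson correlation over clusters of at least 10 cells, among genes reaching 10 CPM in a cluster, were named as well, and so were up to 3 genes per list and direction called between veins and sinusoids. Cells at 20 or more counts are reported, although at least 1 count was the first limit set, because low counts of *Pecam1* were found in most cells of all classes.

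The pool number pairs sums, because clusters of a class with the same number come from the same sample, and between the classes it marks the sex. The correlation of deviations within a pool was 0.12 to 0.30 for the 4 classes, -0.03 to 0.18 for the 8 endothelial clusters and 0.02 to 0.21 for the 11 mesenchymal clusters. Alternatives were DESeq2 1.42.0, no filter on low counts, the pool as a block, cells thinned to 50000 counts, at least 10 cells per sum, #e7 with the veins or with the sinusoids, sums per plate with the plate as a block, and each pool alone. Leaving #e6 out of the sinusoids and comparing it with the other sinusoidal clusters, per plate too, were added after the data had been seen.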

Additional observations from a re-analysis of the deposited data

Results flagged for a closer look

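In 6 comparisons a receptor differed in direction between the male and the female pool by at least 1 on the log2 scale, as ratios of CPM + 0.5 within a pool, among those that reached 10 CPM on either side in both pools. None of these differences was tested, as there was 1 pool of each sex. *Alcam* in endothelial cells against the other 3 classes had a log2 ratio of -1.747 in the male and 0.315 in the female pool. *Vcam1* in mesenchymal cells had 0.267 in male and -1.357 in female cells, the latter from 1 plate. *Mcam* in parenchymal cells had -2.002 and 0.053, where the male pool held mostly hepatocytes and the female pool 37 cholangiocytes and 2 hepatocytes.

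Among endothelial clusters, *Vcam1* in the portal vein against the sinusoids had a log2 ratio of -0.482 in the male and 1.266 in the female pool. *Esam* in #e7 against the sinusoids had 0.066 in the male and -1.791 in the female pool. *Esam* in #e5c against #e2c had 1.242 in the 5 male and -0.091 in the 9 female cells of #e5c. None of these 6 results was called over both pools.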

How the results depend on the processing

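Over the 12 comparisons with 2 pools on each side 38 calls of receptors were made. They were refitted 206 times, with the same call in 190, a lost call in 16 and the opposite direction in 0, and all 76 values within a single pool kept their direction. In veins against sinusoids the single pools gave log2 ratios of 3.03 to 3.56 for *Selp*, 0.66 to 1.92 for *Vcam1* and 7.35 to 8.26 for *Cd200*. The number of receptors called in immune cells was 7 with DESeq2, 7 with no filter on low counts and 5 with thinned cells, against 3. Over all genes, 5669 of 24046 were called there with DESeq2, 5507 of 34614 unfiltered and 3130 of 19639 thinned, against 3167 of 24046. In parenchymal cells 7 receptors were called with no filter, against 4, where genes called were 5066 of 34614, against 2987 of 24046. In the central vein the number of receptors was 7 with no filter and 2 with sums per plate, against 4. In the portal vein it was 2 with DESeq2, 3 with no filter and 2 without #e6, against 1. Between the veins it was 2 with DESeq2, 2 with no filter, 2 with at least 10 cells and 3 with sums per plate, against 0. In #e5c it was 1 with DESeq2 and 2 with no filter, against 0. With sums per plate it was 1 against 3 in both veins (*Selp* 1.84, adjusted p = 0.36, and *Vcam1* 0.72, adjusted p = 0.64, were lost), 0 against 4 in #e7 and 1 against 3 in #e6, and list genes called between veins and sinusoids were 3 against 8. The cause of these changes was not tested.

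The pool as a block added the call of *Icam2* in immune cells (2.66, adjusted p = 0.042), ended that of *Vcam1* in mural cells (-2.01, adjusted p = 0.088) and changed no other call of a receptor. It could not be run for cholangiocytes against hepatocytes, where the hepatocyte side is 1 sample, and #e5c had too few cells for at least 10 per sum. Also lost was *Vcam1* in #e7 with thinned cells (1.38, adjusted p = 0.13). Over all genes, calls ran from 86 to 947 in both veins, 137 to 789 in the central vein, 95 to 851 in the portal vein, 14 to 317 between the veins, 11 to 1908 in #e7, 26 to 275 in #e6 and 178 to 2914 in #e5c. Outside #e5c, genes tested were 18321 in the main fit and with DESeq2, 29266 unfiltered and 9112 to 12164 with sums per plate. DESeq2 also shifted the split of calls: it gave 452 higher and 495 lower genes in both veins against 176 and 41 with edgeR, 324 and 355 against 244 and 27 in the central vein, 303 and 264 against 226 and 21 in the portal vein, 527 and 1381 against 234 and 21 in #e7, and 129 and 146 against 43 and 2 in #e6. With sums per plate the split was 36 and 50, 60 and 77, 44 and 51, 7 and 4, and 19 and 7. Of the 10 receptors 7 had their highest class level in endothelial cells, and 6 by cells at 20 counts, with thinned cells or by the mean over cells.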
